A study of Spodoptera frugiperda with 3 samples.

Results

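Small heat shock proteins of the fall armyworm, *Spodoptera frugiperda*, were followed in RNA-seq libraries from larvae kept at 40 °C for 16 h (T40), at 4 °C for 16 h (T4) or at 25 °C as the control (T25). Members were the unigenes whose first NR protein title, NR being the protein database of NCBI, held the words small heat shock, alpha-crystallin or essential for life, or a heat shock protein name with a number from 10 to 29 and a decimal. The rule used names and no measured value. It found 9 unigenes of the 30327 in the authors' 3 deposited tables, and 1 of the 9, the heat shock protein Hsp-12.2-like unigene c165256_g1_i1, matched only with a hyphen allowed between the name and its number. All groups were wild-type whole larvae on an artificial diet, with 5 larvae pooled into 1 library per temperature and no exposure time given for T25. The instar is the fourth on the labels and the fifth in the description of the RNA extraction. No difference could be set against a spread between replicates, so no test is reported. In pooled whole bodies, fewer cells of a type and less RNA per cell cannot be told apart.

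Small heat shock proteins are chaperones that need no ATP. They share the alpha-crystallin domain, listed in the Pfam protein family database as HSP20, assemble into large oligomers and hold partly unfolded proteins in a soluble state until ATP-driven chaperones of the Hsp70 family, with DnaJ partners, refold them. In insects many of them are known to be induced by heat or cold through the heat shock factor, while others are made during normal development and in muscle. The gene lethal(2)essential for life, l(2)efl, is a *Drosophila melanogaster* member of the family.

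The label was borne out by the domain annotation, which the rule did not use. All 9 members carried a Pfam HSP20 hit, and no other of the 30327 unigenes read from the tables did. One line of the T40/T25 table and 1 of the T40/T4 table held no values and are in none of these counts. The matched stretch of the family sequence spanned 91 to 98 residues. In UniProt, 7 members had l(2)efl of *D. melanogaster* as the best hit, c165256_g1_i1 had an alpha-crystallin B chain of a shark, and the small heat shock protein 27.2 unigene c157922_g1_i1 had none. The l(2)efl entry also supplied GO terms to 8 members, among them protein refolding, Z disc and sarcomere organization. The best NR hit came from the moth *Spodoptera litura* for 8 members and from *Helicoverpa armigera* for c206572_g1_i1. For c166805_g2_i1 the same hit also bore the title small heat shock protein 22.0, and for c173498_g2_i1 small heat shock protein 19.3. The unigenes come from a de novo assembly with no genome and their NR hits are proteins of other moths, so no position or sequence is given.

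Each deposited table lists only unigenes that the authors selected for its pair of libraries, and the smallest fold in each was 2.35. The paper reports far fewer differentially expressed unigenes, under a larger minimum fold and a P-value limit. A unigene listed here is therefore not always one that the paper calls differentially expressed. Of the members, 2 were in all 3 tables, 6 in 2 tables and 1 in a single table, so 8 had read counts in every library and c206572_g1_i1 had none for T25. Small heat shock genes that were listed in no comparison were not analysed here. The tables held 21560373 reads of T40, 24403584 of T4 and 16678975 of T25, and the effective library sizes behind the authors' normalized values were 38643842, 36483914 and 28015943 reads in the same order. The 10 unigenes with the most reads held 13.4% of the table reads in T40, 43.6% in T4 and 33.5% in T25. Normalized reads below are reads per 1000000 of that size, and folds are their ratios with a 95% exact counting interval that covers counting error only. FPKM, which also divides by unigene length, is used where members are compared with each other.

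Taken by library, the small heat shock reads were lowest at 40 °C and highest at 25 °C, while most single members were highest at 4 °C or at 40 °C. Of the 8 members with 3 values, 2 were highest in T40, 4 in T4 and 2 in T25, although for c165256_g1_i1 the T40 and T4 levels were not separated by the counting interval. The 2 that were highest in T25 were also the 2 with the most reads, and they set the family total. The ratio of the highest to the lowest library ran from 6.61 for c165256_g1_i1 to 251 for c173498_g2_i1.

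**Figure D1:**
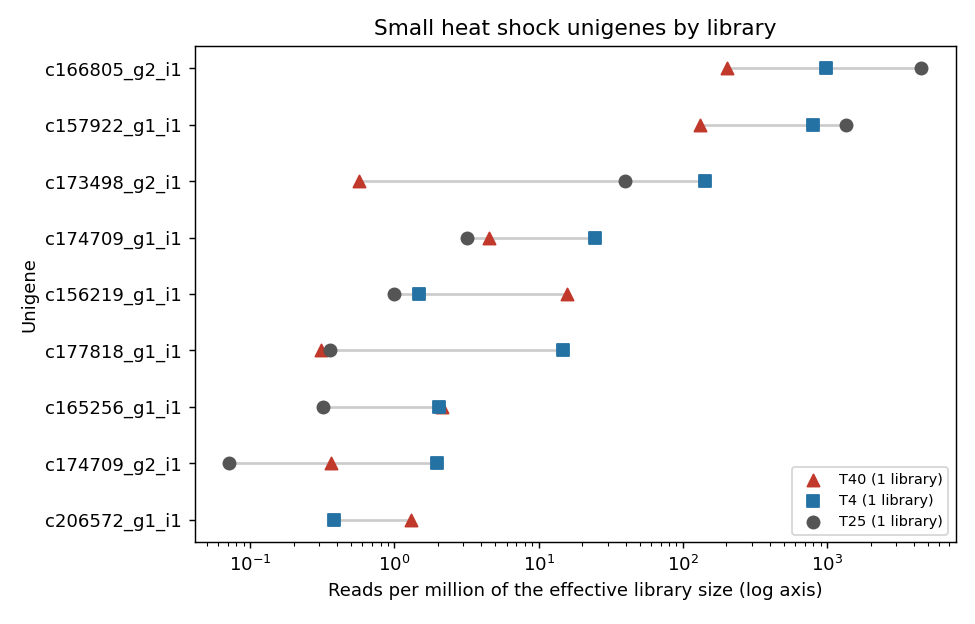
Normalized reads (reads per 1000000 of the effective library size, log axis) of the 9 small heat shock unigenes in T40 (triangles), T4 (squares) and T25 (circles), 1 library each, ordered by their highest read count. The 2 unigenes at the top are highest in T25, at 4460 and 1344, and c206572_g1_i1 has no T25 value.

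The member with the most reads was c166805_g2_i1, the l(2)efl-like unigene also titled small heat shock protein 22.0. It had 7807 reads in T40, 35792 in T4 and 124947 in T25, or 202.0, 981 and 4460 normalized reads. Per length it reached 257 FPKM in T40, 1080 in T4 and 5227 in T25, where it ranked 9 among the 25964 unigenes with a T25 value. The control library was the highest and the hot library the lowest. It was 22.1-fold lower in T40 than in T25 (95% counting interval 21.6 to 22.6), 4.55-fold lower in T4 than in T25 (4.49 to 4.60) and 4.86-fold lower in T40 than in T4 (4.74 to 4.98). It ranked 219 of 27856 unigenes in T40 and 29 of 25639 in T4, so it stayed among the more abundant of the listed unigenes at each temperature. Unigenes listed in no comparison were not ranked.

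The pattern most like it was that of c157922_g1_i1, the small heat shock protein 27.2 unigene, with a summed difference of 2.54 over both log2 folds against T25. It had 5085 reads in T40, 29064 in T4 and 37651 in T25, and 107 FPKM in T40, 560 in T4 and 1004 in T25. The control was again the highest library, with T4 much closer to it than T40. It was 10.2-fold lower in T40 than in T25 (95% counting interval 9.92 to 10.5) and 6.05-fold lower in T40 than in T4 (5.88 to 6.24). In T4 it was 1.69-fold lower than in T25 (1.66 to 1.71), a difference for which the authors' T4/T25 table does not list it. Next in likeness came c173498_g2_i1 at a summed difference of 5.69 and c174709_g1_i1 at 10.1, both of which were higher, not lower, in T4.

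The widest spread belonged to c173498_g2_i1, the l(2)efl-like unigene also titled small heat shock protein 19.3. It had 22 reads in T40, 5210 in T4 and 1104 in T25, and 0.71 FPKM in T40, 153 in T4 and 44.98 in T25. The cold library was the highest, and the hot library held few of its reads. It was 69.2-fold lower in T40 than in T25 (95% counting interval 45.5 to 111), 3.62-fold higher in T4 than in T25 (3.40 to 3.87) and 251-fold lower in T40 than in T4 (165.5 to 401). With c166805_g2_i1 it was 1 of 2 members listed in all 3 tables, and the T4/T25 folds of that pair had opposite signs.

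In contrast with these, 3 further l(2)efl-like members were at low levels in T25 and were highest in T4. The first, c177818_g1_i1, had 12 reads in T40, 541 in T4 and 10 in T25. It was 41.5-fold higher in T4 than in T25 (95% counting interval 22.4 to 87.1) and 47.8-fold lower in T40 than in T4 (27.1 to 93.0). Its T40 and T25 levels could not be separated at this depth, with a T40/T25 log2 fold of -0.20 and a counting interval from -1.54 to 1.17.

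The other members of this kind, c174709_g1_i1 and c174709_g2_i1, belong to 1 assembly cluster and matched the same *Bombyx mori* family sequence over 98 residues. They may share reads, so they are not independent, although the counts of members below take them separately. Their NR hits have the same name under different accessions, and the KEGG entry of c174709_g2_i1 is the *B. mori* heat shock protein 20.4. Reads of c174709_g1_i1 were 176 in T40, 900 in T4 and 89 in T25. Reads of c174709_g2_i1 were 14 in T40, 72 in T4 and 2 in T25. Both had their highest level in the cold library. In T4 against T25, c174709_g1_i1 was 7.77-fold higher (95% counting interval 6.24 to 9.77) and c174709_g2_i1 27.6-fold higher (7.38 to 233), the wide interval of the second resting on 2 control reads. Their folds in T40 against T4 were nearly the same, 5.42-fold lower (4.60 to 6.40) and 5.45-fold lower (3.05 to 10.5). In T40 against T25 they were not listed, at 1.43-fold higher (1.105 to 1.871) and 5.07-fold higher (1.17 to 46.0).

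Heat was the highest condition for c156219_g1_i1, another l(2)efl-like unigene. It had 602 reads in T40, 54 in T4 and 28 in T25, and 22.5 FPKM in T40, 1.85 in T4 and 1.33 in T25. It was 15.6-fold higher in T40 than in T25 (95% counting interval 10.7 to 23.7) and 10.5-fold higher in T40 than in T4 (7.96 to 14.2). Its T4 and T25 levels were not separated by the counting interval, at a T4/T25 fold of 1.48 (0.92 to 2.43). It was the sole member over 100 reads that was listed as higher at 40 °C, and even there its FPKM was below those of c166805_g2_i1 and c157922_g1_i1.

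Both stress temperatures were above the control for c165256_g1_i1, the Hsp-12.2-like unigene. Its reads were 82 in T40, 74 in T4 and 9 in T25. It was 6.61-fold higher in T40 than in T25 (95% counting interval 3.31 to 15.0) and 6.31-fold higher in T4 than in T25 (3.15 to 14.3), 2 folds that share the same control reads. In T40 against T4 the fold was 1.05 (0.75 to 1.45) and it was not listed. The last member, c206572_g1_i1, had 50 reads in T40 and 14 in T4, a fold of 3.37 higher in T40 (1.84 to 6.60). At these depths a few reads decide the fold of either unigene.

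**Figure D2:**
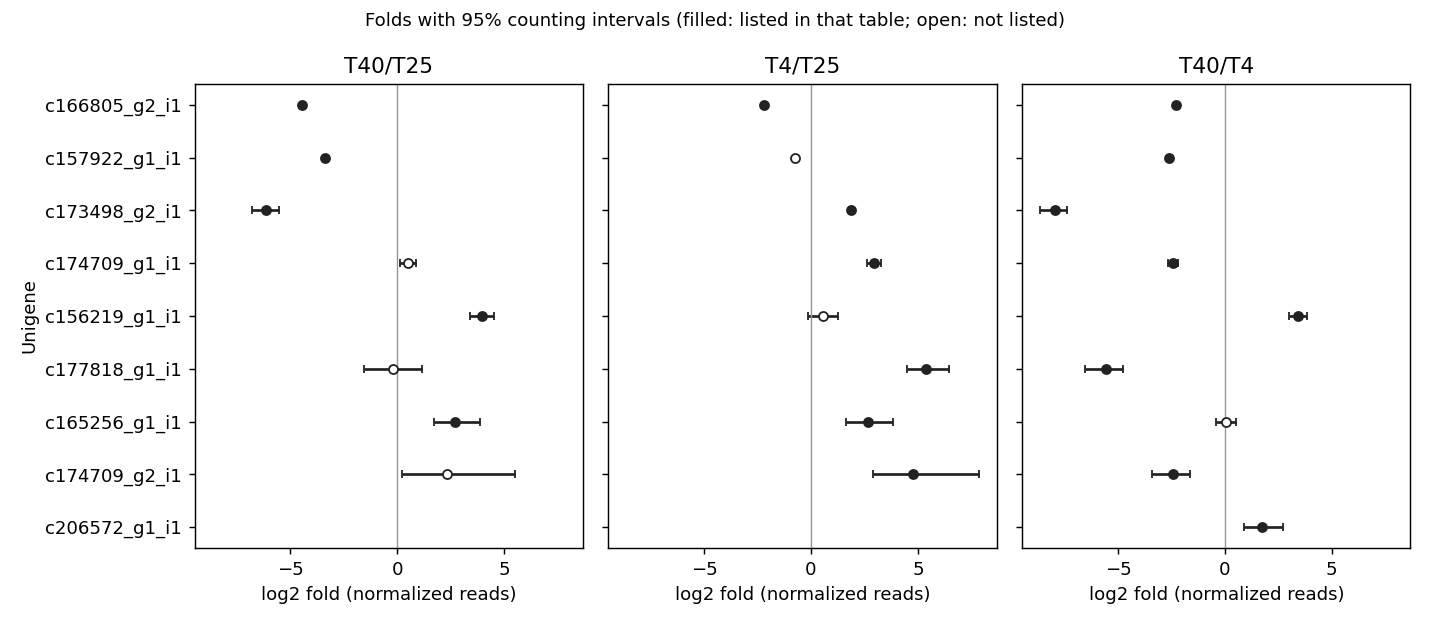
Log2 folds of normalized reads for each small heat shock unigene in T40/T25, T4/T25 and T40/T4, with bars for the 95% counting interval. Filled points are listed in the authors' table of that comparison and open points are not. At 40 °C the 3 unigenes with the most reads lie left of 0, down to -6.11 for c173498_g2_i1, while in T4/T25 all but the top 2 lie right of 0.

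At 40 °C against 25 °C, 5 members were listed, and 2 were higher by at least 2-fold and 3 were lower. Of all 20077 unigenes of that table, 47.1% were higher and 52.9% lower, and the table holds 66.2% of the 30327 unigenes. The median log2 fold of the 5 members was -3.35, against -1.51 over the whole table and 1.40 over its unigenes with an NR hit, of which 53.6% were higher. With 5 members the split is close to that of the table. The 3 lower members are those with the most reads.

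At 4 °C against 25 °C, 6 members were listed, 5 of them higher and 1 lower. Of all 12173 unigenes of that table, which are 40.1% of the 30327, 55.1% were higher and 44.9% lower, and among those with an NR hit 49.4% were higher. The median log2 fold of the 6 members was 2.81, against 1.58 over the whole table and -1.25 over the NR-annotated part. The lower one was c166805_g2_i1, which in FPKM exceeded all the others together in T4.

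At 40 °C against 4 °C, 8 members were listed, 2 of them higher and 6 lower. Of all 18896 unigenes listed for it, which are 62.3% of the 30327, 45.4% were higher and 54.6% lower, and among those with an NR hit 56.6% were higher. The median log2 fold of the 8 members was -2.44, against -1.59 over the table and 1.45 over its unigenes with an NR hit. The higher ones were c156219_g1_i1 and c206572_g1_i1. The 3 comparisons share libraries pairwise, so their counts are not independent of each other.

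Summed over the 8 members with 3 values, small heat shock reads came to 357 normalized reads in T40, 1965 in T4 and 5848 in T25. The sum was 16.4-fold lower in T40 than in T25 (95% counting interval 16.1 to 16.7) and 2.98-fold lower in T4 than in T25 (2.949 to 3.002). Per length, the summed FPKM was 399 in T40, 1852 in T4 and 6283 in T25. In the control, c166805_g2_i1 alone made up 83.2% of the summed FPKM and c157922_g1_i1 a further 16.0%. At 40 °C these shares were 64.4% and 26.8%, and c156219_g1_i1 had 5.64%. At 4 °C they were 58.3% and 30.2%, and c173498_g2_i1 had 8.27%.

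The direction of the sum rested on the abundant members. Without c166805_g2_i1 and c157922_g1_i1, the other 6 summed to 23.5 normalized reads in T40, 188 in T4 and 44.3 in T25. That was 4.24-fold higher in T4 than in T25 (95% counting interval 3.99 to 4.50) and 1.89-fold lower in T40 than in T25 (1.73 to 2.06). Without c173498_g2_i1 as well, the T40/T25 direction turned. The remaining 5 summed to 22.9 normalized reads in T40, 44.98 in T4 and 4.93 in T25, which was 4.655-fold higher in T40 than in T25 (3.89 to 5.61) and 9.13-fold higher in T4 than in T25 (7.67 to 10.9). These sums were chosen after the values had been seen.

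**Figure D3:**
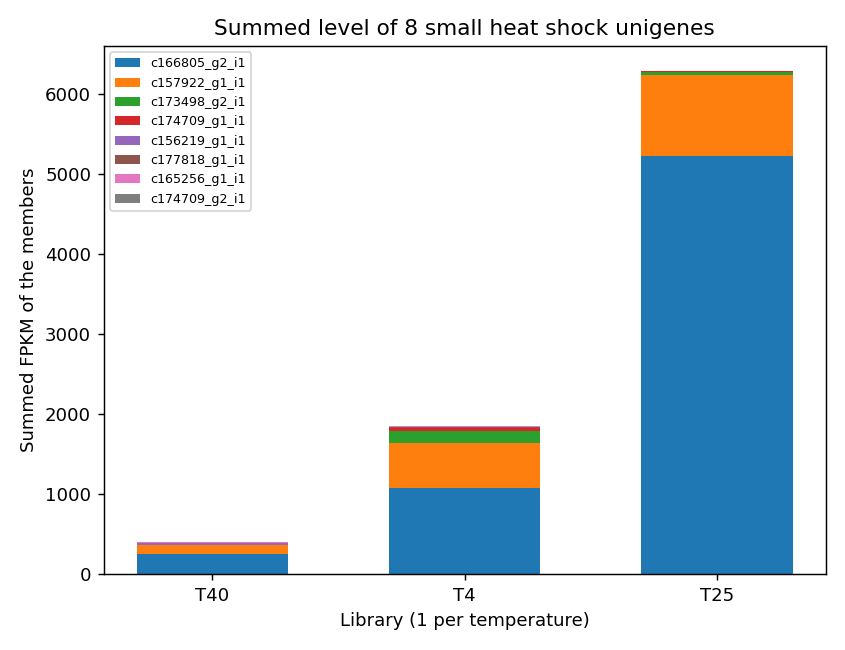
Summed FPKM of the 8 small heat shock unigenes with values in all libraries, stacked by unigene, for T40, T4 and T25 (1 library each). The bars reach 399 in T40, 1852 in T4 and 6283 in T25, and c166805_g2_i1 is the largest part of each.

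Muscle is a tissue in which l(2)efl is known in *Drosophila*, and the summed level of muscle transcripts was lower at 40 °C. Over 49 unigenes of a muscle list with 3 values, which also takes in myosins of other cells, the summed level was 9194 normalized reads in T40, 51710 in T4 and 64422 in T25. That was 7.01-fold lower in T40 than in T25 and 1.25-fold lower in T4 than in T25. In T40, 34 of the 49 were below T25 and 40 were below T4, and none was at 0, since the tables list no count of 0. Of the 51 listed in T40/T25, 16 were higher and 35 lower. At 4 °C the unigenes did not follow the sum, with 22 of the 49 below T25 and, of the 32 listed in T4/T25, 18 higher and 14 lower. Over all unigenes listed, 52.9% were lower in T40/T25, 54.6% lower in T40/T4 and 55.1% higher in T4/T25. Among the 3 muscle unigenes with the most reads, all of which were lower in T40, the muscle myosin heavy chain unigene c177886_g1_i1, the motor of the thick filament, had 117008 reads in T40, 656473 in T4 and 581678 in T25. The muscle actin unigene c135025_g1_i1 had 37251 reads in T40, 273694 in T4 and 191394 in T25. The part of muscle in the small heat shock result was not tested.

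The rest of the heat shock pathway was read from lists of annotation names. Heat shock factor is the transcription factor that switches on heat shock genes. Its unigenes were listed as lower in 2 of 2 cases in T40/T25 and in 3 of 3 cases in T4/T25, and none was listed in T40/T4. Those listed in T40/T25, c175344_g2_i1 and c175344_g3_i1, share an assembly cluster and may not be independent. The one with the most reads in T40, c175344_g3_i1, had 737 reads in T40, 342 in T4 and 1375 in T25. It was 2.57-fold lower in T40 than in T25 (95% counting interval 2.35 to 2.82) and 5.24-fold lower in T4 than in T25 (4.65 to 5.91). The heat shock factor unigene with the most reads, c188463_g1_i3, had 3436 in T4, 7063 in T25 and no T40 value. The T40/T25 direction of heat shock factor reads as a whole is therefore not known.

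Of the ATP-driven chaperones, Hsp70 family unigenes were higher in 4 and lower in 1 of 5 in T40/T25. In T4/T25 they were higher in 3 and lower in 1 of 4. In T40/T4, 4 were higher and 2 lower. The 6 Hsp70 family unigenes with 3 values summed to 3492 normalized reads in T40, 1239 in T4 and 171 in T25. The heat shock cognate 70 unigene c174698_g1_i1 was the highest of them in T40/T25, at 62.0-fold higher (95% counting interval 58.4 to 65.9), and the heat shock protein 70 unigene c147153_g1_i1 was the lowest, at 4.89-fold lower (4.27 to 5.61). One more abundant heat shock cognate 70 unigene, c164148_g1_i1, had 111746 reads in T4 and 237202 in T25 but no T40 value, and is outside that sum. With it the T4/T25 direction turned, and the 7 Hsp70 family unigenes with both values summed to 4302 normalized reads in T4 and 8638 in T25, 2.01-fold lower in T4. The T25 sum of 171 thus leaves out most Hsp70 family reads of the control. Without a T40 value for c164148_g1_i1, the T40/T25 direction of the whole family's sum is not known.

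Among the partners of Hsp70, DnaJ proteins, which deliver clients to Hsp70, were higher in 9 and lower in 2 of 11 in T40/T25, in 3 and 2 of 5 in T4/T25, and higher in 7 of 7 in T40/T4. The dnaJ homolog shv unigene c164307_g1_i1 was 34.4-fold higher in T40 than in T25 (95% counting interval 30.5 to 38.9), and dnaJ-like protein 60 (c182225_g1_i2) was 4.15-fold lower (3.42 to 5.06). Of the co-chaperones, 2 were higher and 1 lower in T40/T25 and likewise in T40/T4, and 1 was higher in T4/T25. The 3 with 3 values summed to 159 normalized reads in T40, 242.5 in T4 and 231.5 in T25. The lower one in T40/T25 was the BAG domain-containing protein Samui unigene c181424_g2_i1, of a protein class that binds Hsp70, at 4.22-fold lower (4.00 to 4.45).

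The Hsp90 family, which includes the endoplasmic reticulum chaperone endoplasmin, was higher in 3 of 3 in T40/T25, 1 of 1 in T4/T25 and 4 of 4 in T40/T4. Endoplasmin (c168634_g1_i1) had 44245 reads in T40, 8601 in T4 and 1466 in T25. Chaperonins, the mitochondrial Hsp60 and Hsp10 and the cytosolic T-complex subunits, were higher in 11 of 11 in T40/T25, 1 of 1 in T4/T25 and 11 of 11 in T40/T4. Their summed level was 1863 normalized reads in T40, 432 in T4 and 383 in T25. Of the 7 lists, small heat shock proteins had more lower than higher unigenes at 40 °C, with 3 of 5 lower in T40/T25 and 6 of 8 in T40/T4, and so did heat shock factor in T40/T25. Over all unigenes listed, 52.9% were lower in T40/T25 and 54.6% in T40/T4. More lower than higher unigenes was thus also the case for the tables as a whole. Among unigenes with an NR hit, from which all 7 lists were drawn, 53.6% were instead higher in T40/T25 and 56.6% in T40/T4. The difference between the lists was not tested.

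**Figure D4:**
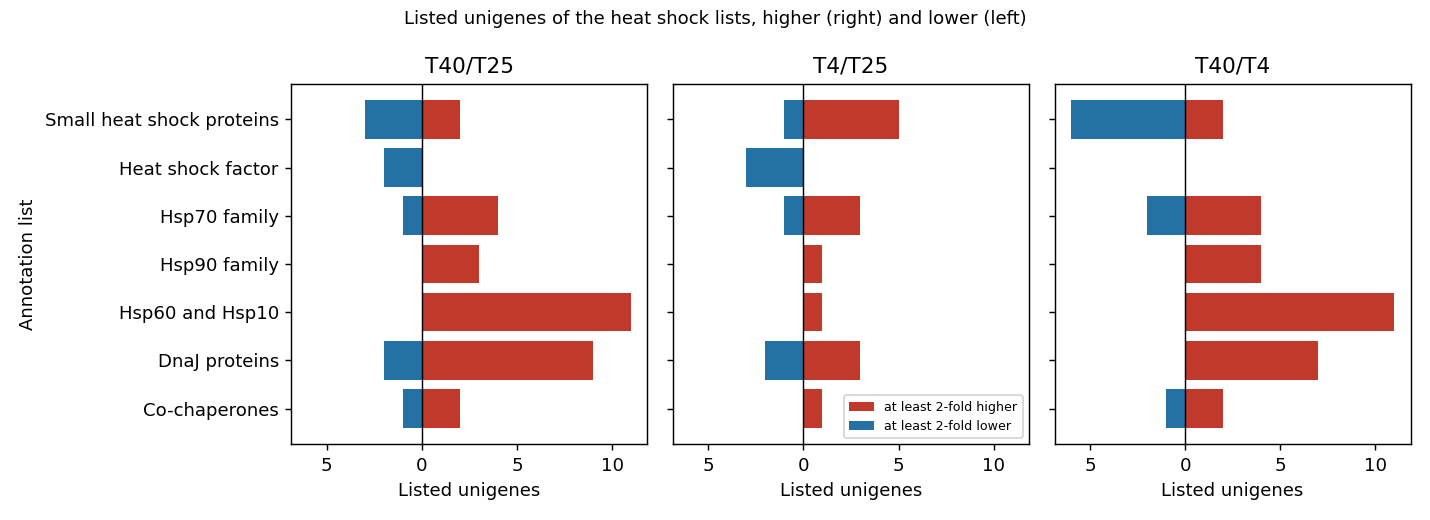
Number of listed unigenes at least 2-fold higher (right) and lower (left) in T40/T25, T4/T25 and T40/T4, for small heat shock proteins and 6 other lists of the heat shock pathway. At 40 °C against 25 °C chaperonins are higher in 11 of 11 and small heat shock proteins in 2 of 5.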

How the data were processed

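Libraries were made with a stranded mRNA kit from total RNA of 5 pooled whole larvae per temperature. Per the labels and methods, reads were trimmed with Trimmomatic 0.38, assembled with Trinity into unigenes and aligned with Bowtie 1.1.2, and the authors estimated the deposited read counts with RSEM. The deposited FPKM values were made by the authors from counts, length and library size. Normalized values were deposited on a log2 scale, as 1 plus counts per 1000000 reads of an effective size that the authors set from size factors. The authors' own fold changes, P-values and mean columns were not used, except through the choice of unigenes that each deposited table lists.

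Effective sizes were recovered from unigenes with at least 1000 reads, and folds used a pseudocount of 0. Each ratio has a 95% exact interval (Clopper-Pearson, given the sum of both counts). On data simulated with counting error alone for the 20077 T40/T25 unigenes, these intervals covered 95.9% of unchanged ones. That checks the calculation and not how far replicate libraries would vary. Every member was to be named where it had at least 100 reads in a library (6 members), and the other 3 were named as few. In each list of the heat shock pathway, the unigene with the highest and that with the lowest T40/T25 fold could be named. Members, lists (heat shock factor, Hsp70, Hsp90, Hsp60 and Hsp10, DnaJ, co-chaperones, muscle, fat body, midgut, cuticle) and rules were chosen with earlier results of these data known, and list patterns were corrected for wrong matches after values had been seen. Alternatives were FPKM ratios, scaling with TMM (edgeR 4.0.16) or the totals of trimmed reads, pseudocounts of 1 and 10, read minimums, other memberships and a fold of at least 4. TMM was computed only from unigenes with counts in all 3 libraries, each selected by the authors for a difference in some pair. Unigenes steady across the libraries, on which TMM relies, were absent from it. The software was R 4.3.3 and Python 3.11.15 with scipy 1.17.1, matplotlib 3.10.9, pandas 2.3.3 and numpy 2.4.6.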

Additional observations from a re-analysis of the deposited data

How the results depend on the processing

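With a minimum of 100 reads, members at least 2-fold higher numbered 1 in T40/T25, 3 in T4/T25 and 1 in T40/T4, against 2, 5 and 2 without it. With a fold of at least 4, 1 was higher in T40/T4. Chosen after seeing the data, leaving out the hyphenated name left 1 higher in T40/T25, and leaving out c166805_g2_i1 left 0 lower in T4/T25. The other counts stayed within 1.5 times under the alternatives run. Membership by any annotation, and 1 unigene per NR accession or assembly component, kept the same 9 members and so could change no count. They kept c174709_g1_i1 and c174709_g2_i1 apart, so the effect of that shared cluster was not tested. Of the 19 folds of listed members, 0 changed direction with FPKM ratios, either pseudocount or either other scaling. FPKM ratios and the scalings could hardly have turned one. Every listed fold was at least 2.35, and these settings moved log2 folds by at most 0.29. However, 5 of the 19 folds fell outside their counting interval with TMM scaling, 7 with trimmed reads, 5 with FPKM ratios and 3 with a pseudocount of 10. The counting intervals thus do not cover the choice of scaling. TMM scaling shifted every T40/T25 log2 fold by 0.19 and every T40/T4 one by 0.23, and scaling by trimmed reads shifted them by 0.16 and 0.28 and those of T4/T25 by -0.13. A pseudocount of 10 moved a log2 fold by up to 2.40. No paired analysis was possible because each temperature has 1 library. Depth limits the members with few reads, and pooled larvae with 1 library per temperature leave the variation between larvae unknown.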

Other observations

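Tissue lists other than muscle also differed between the libraries in which small heat shock reads were lowest and highest. For comparison, 47.1% of all listed unigenes were higher in T40/T25 and 55.1% in T4/T25. Fat body unigenes, such as storage proteins and vitellogenin-like ones, were higher in 3 and lower in 7 of 10 in T40/T25 and higher in 8 and lower in 1 of 9 in T4/T25. Their 12 unigenes with 3 values summed to 25787 normalized reads in T40, 213950 in T4 and 96874 in T25. Midgut unigenes, mostly of digestive proteases, were higher in 23 and lower in 14 of 37 in T40/T25 and summed to 11440 in T40, 5083 in T4 and 4577 in T25. The midgut list also takes in antichymotrypsin-like unigenes, whose name is that of protease inhibitors. Cuticle unigenes were higher in 3 and lower in 7 of 10 in T40/T25 and summed to 286 in T40, 3390 in T4 and 2680 in T25.

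The lambda-crystallin homolog unigene c163669_g1_i1 bears a crystallin name but has a dehydrogenase domain and not the HSP20 domain, so it is not a small heat shock protein. It had 2935 reads in T40, 38900 in T4 and 9609 in T25. It was 4.52-fold lower in T40 than in T25 (95% counting interval 4.33 to 4.71) and 3.11-fold higher in T4 than in T25 (3.04 to 3.18).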
